A study of Mus musculus with 9 samples.

Results

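The genes described here encode 9 cytokines that T cells secrete or carry on their surface: Ifng, Tnf, Il2, Csf2, Lta, Ltb, Tnfsf14, Tgfb1 and Il16. They were taken by gene symbol from 37022 genes with a row in the deposited tables, and 8 of the 9 passed the filter on low signal in the gene body, the stretch of a transcript behind its start. The exception was Il2. The libraries hold newly made RNA of mouse CD8+ T cells, which had been given 0.2 mM 5-ethynyl uridine for 30 minutes so that RNA made in that time could be tagged with biotin and pulled down. There were 3 libraries each of acutely stimulated cells, chronically stimulated cells, and chronically stimulated cells with inhibition of MEK, the kinase that activates ERK. The manner and length of stimulation, the inhibitor and its dose, and the strain, sex and age of the mice are not given in the sources used here. Nor is it said whether libraries of 1 group came from separate cultures or animals, so the p-values measure the spread between these libraries, which may be technical.

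Interferon-gamma (Ifng), TNF (Tnf) and interleukin-2 (Il2) are the classic products of an activated CD8+ T cell, and the ability to make them is lost stepwise in T cell exhaustion. GM-CSF (Csf2) acts on myeloid cells, lymphotoxin alpha (Lta) and lymphotoxin beta (Ltb) are relatives of TNF that shape lymphoid tissue, and LIGHT (Tnfsf14) is a TNF relative that binds the receptors HVEM and the lymphotoxin beta receptor. TGF-beta 1 (Tgfb1) restrains T cells, and interleukin-16 (Il16) is a chemoattractant released from a precursor that T cells hold ready. Cytokine genes are switched on from the T cell receptor through NFAT, NF-kB and AP-1 factors, the last reached in part through MEK and ERK. Their mature messages are often short-lived, because AU-rich elements in the 3′ untranslated region recruit decay factors.

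The AU-rich element is shown first because it divides these genes. The captured RNA was made within 30 minutes, and how much of it decayed in that time is not known. The heptamer TATTTAT (transcript strand, overlapping matches counted) occurred 9 times in the 317 bases of the Csf2 3′ untranslated region, 8 times in the 764 bases of that of Tnf and 4 times in the 631 bases of that of Ifng. Among mouse untranslated regions of like length (1611, 2199 and 2088, the gene's own included), 0.0621%, 0.0455% and 0.575% held at least as many. For Csf2 and Tnf that share is the gene's own region. Il2 and Lta held 3 each, Tnfsf14 held 1, and Ltb, Tgfb1 and Il16 held 0. The densest 30 bases of the 3 richest genes are given 5′ to 3′ with the heptamers in capitals, at chr10:118445331-118445360 (plus strand) for Ifng, chr17:35199678-35199707 (minus strand) for Tnf and chr11:54247328-54247357 (minus strand) for Csf2, in build GRCm38.
Ifng: accTATTTATtaatatttaaaacTATTTAT
Tnf: tTATTTATTATTTATTTATTATTTATTTAT
Csf2: ttttaaaTATTTATTTATTTATTTATTTAT
The match is a description of letters, and message decay was not measured here.

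Depth in reads is unknown, since the deposited values are signal scaled per library. Summed over genes, a library's deposited gene-body signal came to between 48600000 and 52220000, and pause-region signal, the signal close to the transcription start, to between 4886000 and 8489000. A ribosomal RNA-like locus took from 19.07% to 40.63% of the gene-body signal. Its share was 19.07% to 22.32% in acute, 34.2% to 40.63% in chronic and 29.01% to 36.14% in MEK-inhibited libraries. With library totals in place of the trimmed mean of log ratios, the median gene moved by -0.49 (log2) between chronic and acute libraries. It moved by 0.11 between MEK-inhibited and chronic, and by -0.38 between MEK-inhibited and acute. With totals that left out this locus, the moves were -0.16, -0.01 and -0.17. Directions below are therefore relative to the bulk of genes, not to RNA per cell. In bulk libraries, fewer cells that make a cytokine and less RNA per cell cannot be told apart. The 8 markers of the labelled cell type were all detected. Their summed gene-body signal ranged from 26860 to 30840 in acute, 18800 to 20190 in chronic and 22720 to 24850 in MEK-inhibited libraries. Between chronic and acute libraries 5 of the 8 were called lower and 3 were not called, against 15.9% of all genes called lower. Their median log2 difference was -0.44, while Cd8a was 4.21-fold lower in chronic than in acute libraries (adjusted p = 5.65e-10).

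The 9 genes did not move together. Between chronic and acute libraries, 7 of the 8 tested members passed an adjusted p of 0.05, with Csf2, Ifng, Tnfsf14 and Tgfb1 higher and Ltb, Lta and Il16 lower. Over all 15942 genes tested, 33.9% were called in that comparison, 18% higher and 15.9% lower. Between MEK-inhibited and chronic libraries 6 of 8 were called, Ltb and Lta higher and Csf2, Tnfsf14, Ifng and Tnf lower, against 17.6% of all genes (9.93% higher and 7.65% lower). Between MEK-inhibited and acute libraries 8 of 8 were called, 4 in each direction, against 25.8% of all genes (14.4% higher and 11.5% lower). The median log2 difference of the members was 0.20, -0.33 and -0.13 in the 3 comparisons, and that of all genes tested was -0.02, 0.04 and 0.00. With library totals, 3 members were called higher and 4 lower between chronic and acute, 2 higher and 3 lower between MEK-inhibited and chronic, and 3 higher and 4 lower between MEK-inhibited and acute. With totals that left out the ribosomal RNA-like locus, these counts were 4 and 4, 2 and 4, and 3 and 4. Over all genes, the counts with library totals were 1096 higher and 6846 lower, 1769 and 741, and 955 and 4965. The 3 comparisons share libraries pairwise, so they are not independent of each other.

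**Figure D1:**
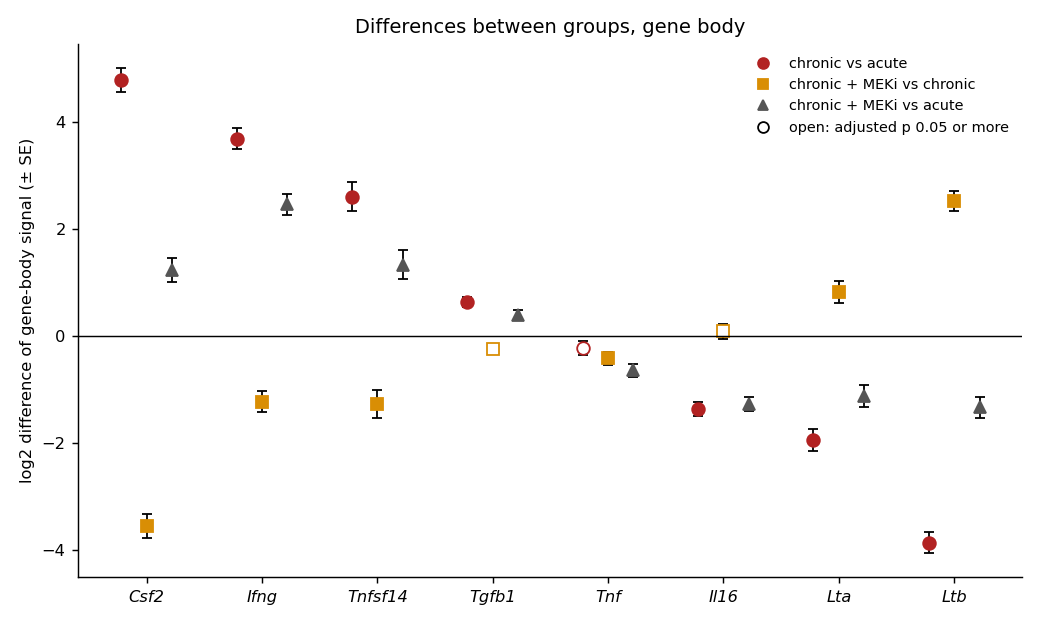
Log2 difference of gene-body signal (y axis, ± SE) for the 8 cytokine genes that passed the filter (x axis), in the 3 comparisons; filled symbols have an adjusted p under 0.05, and error bars shorter than the symbol are hidden. Csf2, Ifng, Tnfsf14 and Tgfb1 lie above 0 between chronic and acute libraries (circles), and Ltb, Lta and Il16 below, with Tnf near 0.

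**Figure D2:**
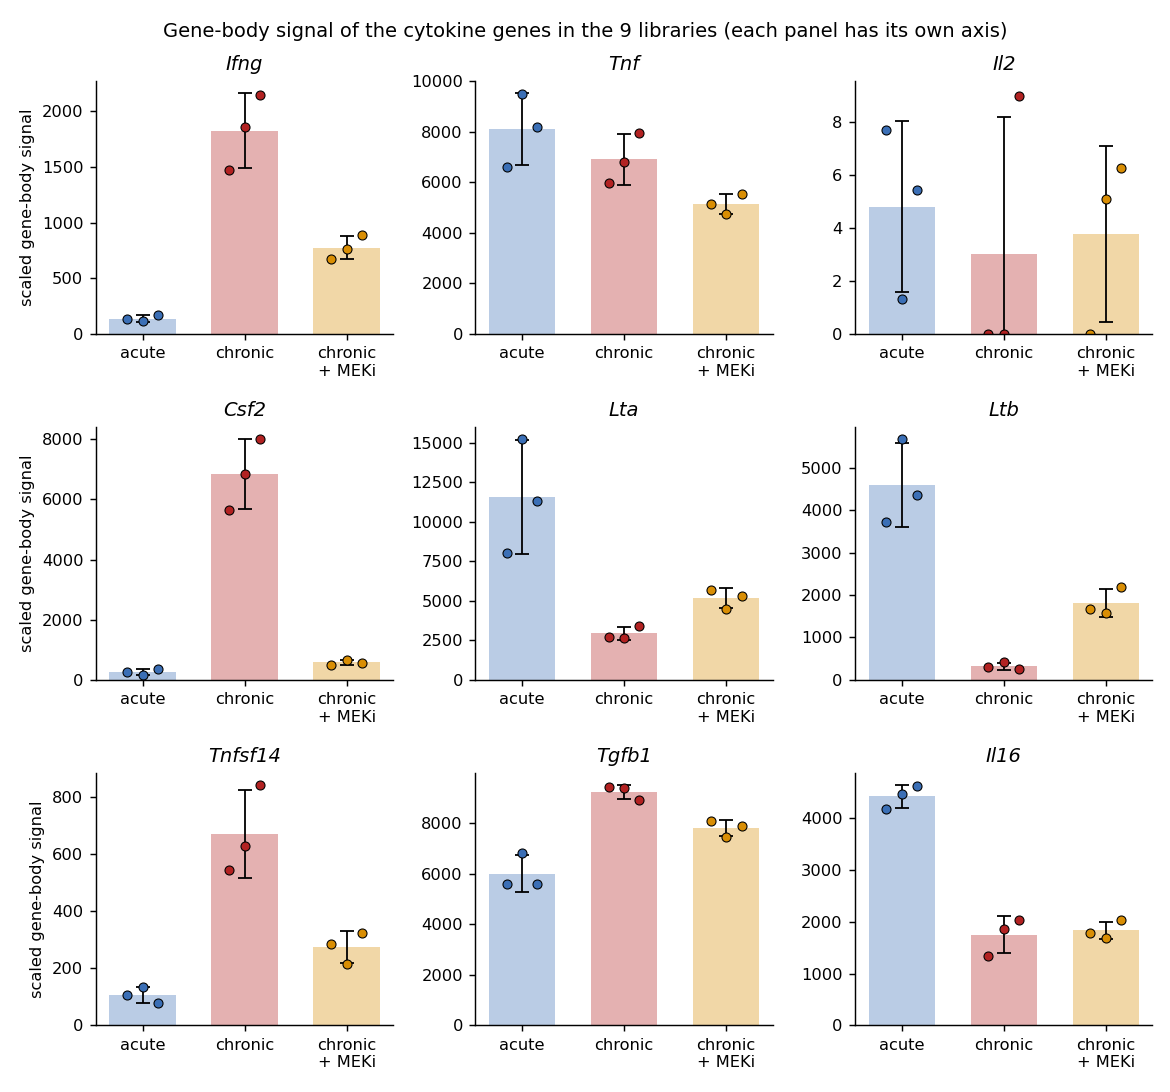
Scaled gene-body signal (y axis, linear, own scale per panel) of the 9 genes in acute, chronic and MEK-inhibited chronic libraries; points are libraries, bars means and whiskers SD (n = 3), cut at 0. The 3 chronic libraries stand above the rest for Ifng, Csf2, Tnfsf14 and, by a small step, Tgfb1. They stand below the rest for Lta and Ltb, and Il2 stays under 10 in each library.

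Ifng and Csf2 were both higher in chronic than in acute libraries and lower with MEK inhibition than without. Ifng (chr10:118441046-118445892, plus strand) had a scaled gene-body signal of 132.5, 111.4 and 168.5 in the acute libraries, 1473, 1863 and 2144 in the chronic ones, and 676.1, 762.9 and 886.4 with MEK inhibition. The 3 groups did not overlap, and MEK-inhibited libraries lay between the other two. Over all genes, groups without overlap were seen for 44.2% between chronic and acute, 32.2% between MEK-inhibited and chronic and 42% between MEK-inhibited and acute libraries. Ifng was 12.9-fold higher in chronic than in acute libraries (log2 difference 3.69 ± 0.20 SE, adjusted p = 9.48e-11). It was 2.33-fold lower with the inhibitor than without (-1.22 ± 0.20, adjusted p = 0.000195), and there still 5.52-fold above acute libraries (adjusted p = 3.46e-08). Gm49751, a provisional transcript on the same strand, lies inside Ifng, and its row held 30.4% to 52.4% of the Ifng value, so part of the same signal stands under both names.

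Csf2 (chr11:54247271-54249667, minus strand) had the largest rise of the members between chronic and acute libraries and the largest fall between MEK-inhibited and chronic ones. Its signal was 242, 164.5 and 353.3 in acute, 5659, 6864 and 8008 in chronic, and 502.2, 667.9 and 564.5 in MEK-inhibited libraries. Every chronic library was thus far above the other 6, which fell into a lower acute and a slightly higher MEK-inhibited group. Csf2 was 27.5-fold higher in chronic than in acute libraries (log2 difference 4.78 ± 0.22, adjusted p = 1.09e-10) and 11.7-fold lower with MEK inhibition than in chronic libraries (-3.55 ± 0.22, adjusted p = 1.1e-08). MEK-inhibited libraries were 2.35-fold above acute ones (adjusted p = 0.000573). Gm12223, annotated on the opposite strand across most of Csf2, held 87.3% to 102% of the Csf2 value. The use of strand in counting is not given in the sources used here, so the rows of Csf2 and Gm12223 cannot be told apart. Il3, the neighbouring cytokine gene 15635 bases away, did not pass the filter.

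The 250 bases upstream of the RefSeq start of each are printed as a description. For Ifng that start is also the start of the row used here. For Csf2 it is not, and the 232 bases directly before the start of its row are not in the printed stretch. Capitals mark GGAAA, the core of an NFAT site, and TATAAA, the TATA box, on either strand. Of 32851 RefSeq promoter windows of 300 bases in build GRCm38.p6, 61.3% held GGAAA and 13.6% held TATAAA. The Ifng stretch, chr10:118440796-118441045 (plus strand), has TATAAA from base -30 to -25 and GGAAA from -172. The Csf2 stretch, chr11:54249900-54250149 (minus strand), has GGAAA from -200 and from -55, and lies upstream of a start that RefSeq places 232 bases before the start of the row used here.
Ifng: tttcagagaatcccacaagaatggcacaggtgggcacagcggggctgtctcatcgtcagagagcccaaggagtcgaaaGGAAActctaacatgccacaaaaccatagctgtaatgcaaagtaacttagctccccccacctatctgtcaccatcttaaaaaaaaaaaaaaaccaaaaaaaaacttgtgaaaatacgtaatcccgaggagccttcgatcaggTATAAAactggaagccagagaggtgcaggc
Csf2: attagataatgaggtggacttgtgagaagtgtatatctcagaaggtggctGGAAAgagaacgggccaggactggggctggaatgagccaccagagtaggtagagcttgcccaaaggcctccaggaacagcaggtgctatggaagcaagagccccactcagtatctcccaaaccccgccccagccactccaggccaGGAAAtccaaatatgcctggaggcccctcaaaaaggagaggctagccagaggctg
An AP-1 site of the form TGANTCA, held by 7.81% of promoter windows, has no match in either stretch, which says only that those letters are absent from it.

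Il2 (chr3:37120523-37125959, minus strand), the growth factor of activated T cells, could not be compared. Its scaled gene-body signal was 7.68, 1.31 and 5.44 in acute libraries, 0, 0 and 8.99 in chronic ones, and 0, 5.09 and 6.25 with the inhibitor. Without a filter its log2 difference was -0.41 between chronic and acute libraries (adjusted p = 0.708), and a difference was not detectable at this level of signal.

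Tnf, Lta and Ltb lie within 10913 bases of chromosome 17 (build GRCm38), Lta at 35203165 to 35205351 and Tnf at 35199381 to 35202007 on the minus strand, and Ltb at 35194439 to 35196320 on the plus strand. Lta ends 1157 bases before Tnf starts, and Tnf and Ltb point toward each other across 3060 bases. The 3 genes differed in what separated the groups. Tnf differed little between chronic and acute libraries, Lta was several-fold lower in chronic libraries, and Ltb was more than 10-fold lower.

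Tnf had a gene-body signal of 6622, 9486 and 8200 in acute, 5962, 6815 and 7969 in chronic, and 5156, 4734 and 5549 in MEK-inhibited libraries. Acute and chronic libraries overlapped, and the MEK-inhibited ones were below both. The difference between chronic and acute libraries was -0.22 ± 0.13 (log2, adjusted p = 0.192), but it was called with library totals (-0.71, adjusted p = 8.13e-05) and without acute replicate 1 (-0.37, adjusted p = 0.0378). Tnf was 1.34-fold lower with MEK inhibition than in chronic libraries (-0.42 ± 0.13, adjusted p = 0.0296), a call lost with library totals (adjusted p = 0.118), without chronic replicate 2 (0.0798) or 3 (0.127) and without MEK-inhibited replicate 2 (0.0994). MEK-inhibited libraries were 1.56-fold below acute ones (adjusted p = 0.00109).

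Lta had a gene-body signal of 8041, 15260 and 11340 in acute, 2693, 2668 and 3417 in chronic, and 5711, 4487 and 5308 in MEK-inhibited libraries. The groups did not overlap, and acute libraries spread most. Lta was 3.84-fold lower in chronic than in acute libraries (log2 difference -1.94 ± 0.20, adjusted p = 3.05e-05). It was 1.77-fold higher with MEK inhibition than in chronic libraries (0.82 ± 0.20, adjusted p = 0.0184). That call was lost without chronic replicate 1 (adjusted p = 0.0791), 2 (0.0665) or 3 (0.0631) and without MEK-inhibited replicate 1 (0.108) or 3 (0.0568). MEK-inhibited libraries were 2.17-fold below acute ones (adjusted p = 0.00226).

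Ltb, the membrane anchor of the lymphotoxin heterotrimer, had a gene-body signal of 3730, 5683 and 4364 in acute, 288.6, 407.6 and 247.3 in chronic, and 1661, 1583 and 2185 in MEK-inhibited libraries. The chronic libraries were lowest by a wide margin, and the MEK-inhibited ones stood between the groups. Ltb was 14.5-fold lower in chronic than in acute libraries (log2 difference -3.86 ± 0.19, adjusted p = 1.97e-10) and 5.74-fold higher with MEK inhibition than in chronic libraries (2.52 ± 0.19, adjusted p = 8.79e-08). MEK-inhibited libraries were still 2.52-fold below acute ones (adjusted p = 6.42e-05). B cells also make lymphotoxins, and the summed signal of 5 B cell markers was 533.6 to 564.8 in acute, 189.4 to 219.2 in chronic and 160.4 to 434.5 in MEK-inhibited libraries. Most of it was Cd79a, with means of 335.5, 106.4 and 153.4, while 3 of the 5 were under 50 in every library, and the group means of Ms4a1 were at most 15.7. The part of these markers in the Ltb and Lta values was not tested.

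The unequal change within the locus can be restated from the same signals as ratios taken inside each library, which no scaling can move. The ratio of Lta to Tnf gene-body signal was 1.21, 1.61 and 1.38 in acute, 0.452, 0.391 and 0.429 in chronic, and 1.11, 0.948 and 0.956 in MEK-inhibited libraries. That of Ltb to Tnf was 0.563, 0.599 and 0.532, then 0.0484, 0.0598 and 0.031, then 0.322, 0.334 and 0.394. That of Ltb to Lta was 0.464, 0.372 and 0.385, then 0.107, 0.153 and 0.0724, then 0.291, 0.353 and 0.412. Of 9 comparisons of log ratios, 8 had groups that did not overlap; their two-sided exact permutation test gave p = 0.1, which is the lower limit for groups of 3 (0.1125 after Benjamini-Hochberg adjustment). The exception was Ltb to Lta between MEK-inhibited and acute libraries (exact permutation p = 0.4). These ratios were chosen after the values were seen and add no data to the signals above. The share of other gene pairs whose ratios did not overlap was not counted.

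**Figure D3:**
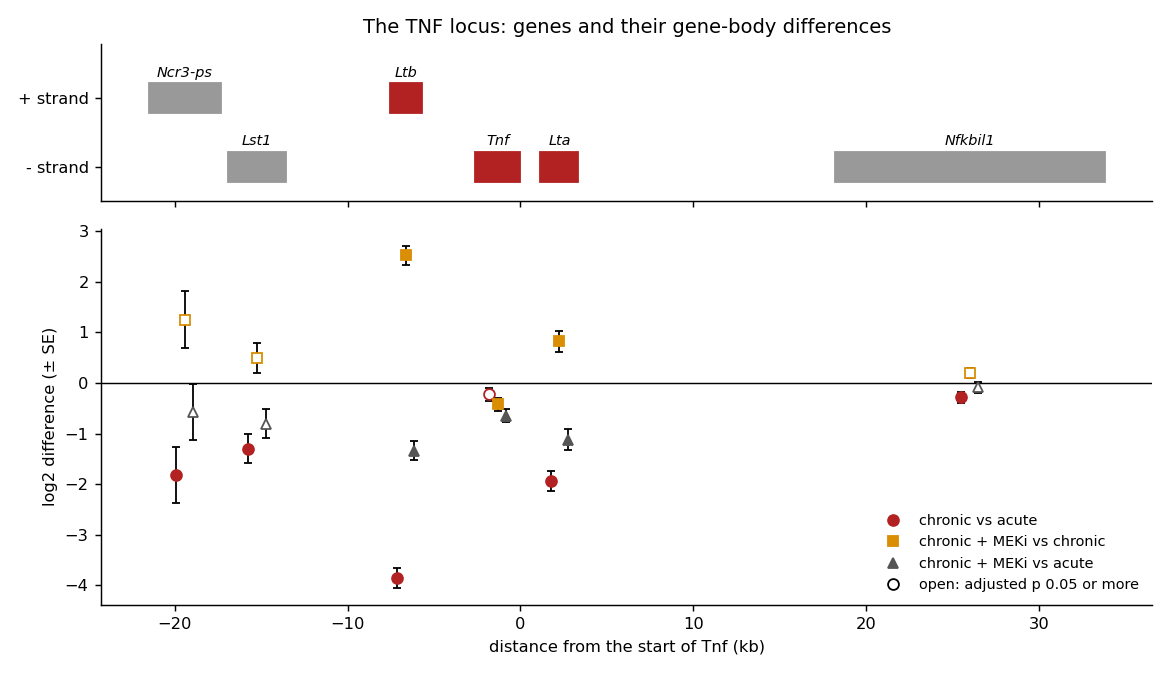
Top, position and strand of Tnf, Lta, Ltb and 3 neighbours by distance from the start of Tnf (x axis, kb); bottom, log2 difference of gene-body signal (± SE) in the 3 comparisons, filled where the adjusted p is under 0.05. Ltb is the gene farthest from 0 between chronic and acute libraries and between MEK-inhibited and chronic ones. Tnf, between Ltb and Lta, is at -0.22 and -0.42 there, and at -0.64 between MEK-inhibited and acute libraries.

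Of the neighbours of the locus, Nfkbil1, on the Lta side, differed by -0.28 between chronic and acute libraries (adjusted p = 0.0445) and Ddx39b, farther out, by -0.13 (adjusted p = 0.282; with library totals -0.62, adjusted p = 0.000242). On the Ltb side, Lst1 was 2.45-fold lower in chronic libraries (adjusted p = 0.00201) and the pseudogene Ncr3-ps 3.53-fold lower (adjusted p = 0.0171), both from low signal (acute means of 252.2 and 81.3). None of the 4 was called between MEK-inhibited and chronic libraries.

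The 250 bases upstream of the RefSeq starts of the 3 genes are set side by side to show how they differ in the letters searched. The stretches are chr17:35202008-35202257 for Tnf and chr17:35205352-35205601 for Lta, both on the minus strand, and chr17:35194257-35194506 on the plus strand for Ltb. Capitals mark GGAAA on either strand, in print the reverse complement where the match is on the other strand. They also mark the TATA box and an NF-kB motif, the outer letters of the consensus around 3 free bases, which 5.56% of promoter windows held.
Tnf: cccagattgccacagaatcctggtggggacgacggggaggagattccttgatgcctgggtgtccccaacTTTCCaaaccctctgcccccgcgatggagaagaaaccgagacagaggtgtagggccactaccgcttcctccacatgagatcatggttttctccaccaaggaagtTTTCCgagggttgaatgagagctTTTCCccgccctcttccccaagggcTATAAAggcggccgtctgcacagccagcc
Lta: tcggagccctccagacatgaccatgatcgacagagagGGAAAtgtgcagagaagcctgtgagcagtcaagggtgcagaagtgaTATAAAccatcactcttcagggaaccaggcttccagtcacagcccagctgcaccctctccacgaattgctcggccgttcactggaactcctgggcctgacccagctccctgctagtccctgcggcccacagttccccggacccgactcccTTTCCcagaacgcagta
Ltb: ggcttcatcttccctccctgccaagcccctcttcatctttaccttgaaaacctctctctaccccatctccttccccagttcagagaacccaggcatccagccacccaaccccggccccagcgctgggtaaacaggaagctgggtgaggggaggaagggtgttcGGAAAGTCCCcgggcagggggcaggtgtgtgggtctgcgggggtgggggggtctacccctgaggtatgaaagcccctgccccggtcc
Tnf has TATAAA from -29 to -24 and GGAAA matches from -181, -77 and -54. Lta has TATAAA only at -167, far from the usual place, and GGAAA from -213 and -17. Ltb has no TATAAA, and its 1 GGAAA match, from -87, overlaps its NF-kB match from -87 to -78 on the other strand. Its RefSeq start lies 68 bases inside the row used here. TGANTCA has no match in these 3 stretches.

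Tnfsf14, encoding LIGHT (chr17:57189492-57194177, minus strand), behaved in its group order like Ifng. Its gene-body signal was 106.9, 133.1 and 80.2 in acute, 543.4, 628.9 and 844.2 in chronic, and 285.2, 215.6 and 325 in MEK-inhibited libraries. The groups did not overlap. Tnfsf14 was 6.08-fold higher in chronic than in acute libraries (log2 difference 2.60 ± 0.27, adjusted p = 4.41e-07), 2.41-fold lower with MEK inhibition than in chronic libraries (-1.27 ± 0.27, adjusted p = 0.00217) and 2.52-fold higher there than in acute ones (adjusted p = 0.00101).

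Tgfb1 (chr7:25687002-25705077, plus strand) had a gene-body signal of 5587, 6831 and 5570 in acute, 9415, 9362 and 8890 in chronic, and 8095, 7448 and 7873 in MEK-inhibited libraries, again 3 groups without overlap but with small steps between them. It was 1.54-fold higher in chronic than in acute libraries (log2 difference 0.63 ± 0.09, adjusted p = 3.44e-05), and with library totals the difference was 0.14 (adjusted p = 0.38). Between MEK-inhibited and chronic libraries the difference of -0.24 ± 0.09 did not pass (adjusted p = 0.0861), though it did when any 1 acute library was left out of the shared fit (adjusted p from 0.00996 to 0.04). MEK-inhibited libraries were 1.31-fold above acute ones (adjusted p = 0.00442), which was lost with library totals (0.00, adjusted p = 0.99), without acute replicate 1 (adjusted p = 0.0678) or 3 (0.0632), and without MEK-inhibited replicate 1 (0.0578). The size of the Tgfb1 differences from acute libraries thus moves with the scaling.

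Il16 (chr7:83642825-83745726, minus strand) fell in chronic libraries and stayed there with the inhibitor. Its gene-body signal was 4177, 4461 and 4620 in acute, 1344, 1865 and 2032 in chronic, and 1777, 1693 and 2024 in MEK-inhibited libraries, so that the last groups overlapped. Il16 was 2.56-fold lower in chronic than in acute libraries (log2 difference -1.36 ± 0.13, adjusted p = 2.54e-07) and 2.41-fold lower in MEK-inhibited than in acute ones (-1.27 ± 0.13, adjusted p = 1.02e-06). Between MEK-inhibited and chronic libraries it differed by 0.09 ± 0.13 (adjusted p = 0.748), and the sign turned without chronic replicate 1 (-0.09). The gene has a long and a short form with separate starts. The row of the short form, at 83642848 to 83655495, held 92.3% to 97.2% of the value of the long one, so nearly all the signal lay in the shared end. The pause-region row of the long form was at 0 or about 1 in each library, while that of the short form, named here after its values were seen, was 137.7, 100.9 and 139.3 in acute, 37.7, 52.5 and 33.2 in chronic, and 47.1, 46.9 and 25.9 in MEK-inhibited libraries. Acute libraries were thus the highest at that start too. Stard5, on the opposite strand, has a form that runs into Il16, and this form held 93.8% to 115% of the value of short Il16. The Stard5 form that ends before Il16 held 6.86% to 31.1%, and strand of the shared signal cannot be told apart.

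The pause region gave a second reading near the start for 6 members, while Il2, Tnfsf14 and Il16 did not pass its filter. Between chronic and acute libraries 4 of 6 were called, Csf2 and Ifng higher and Ltb and Lta lower, against 10.7% of 7678 genes (5.37% higher and 5.35% lower). Between MEK-inhibited and chronic libraries 3 were called, Ltb higher and Csf2 and Ifng lower, against 3% of all genes (1.56% higher and 1.43% lower). Between MEK-inhibited and acute libraries 4 were called, Ifng higher and Ltb, Lta and Tnf lower, against 5.95% (3.44% higher and 2.51% lower). Pause-region groups did not overlap for 24.3%, 20.2% and 24.7% of all genes in the 3 comparisons. Csf2 had a pause-region signal of 28.3, 39.8 and 83 in acute, 1405, 1840 and 1791 in chronic, and 44.4, 94.5 and 138.8 in MEK-inhibited libraries. It was 32.9-fold higher in chronic than in acute libraries (log2 difference 5.04 ± 0.34, adjusted p = 1.13e-11) and 18.8-fold lower with MEK inhibition than in chronic libraries (adjusted p = 1.06e-09). MEK-inhibited and acute libraries overlapped there (0.81 ± 0.34, adjusted p = 0.177), a difference that passed without acute replicate 3 (adjusted p = 0.0307) or without MEK-inhibited replicate 1 (adjusted p = 0.0341).

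Ltb had a pause-region signal of 2675, 2470 and 3194 in acute, 119.2, 122.6 and 85.5 in chronic, and 667.3, 782.8 and 738.1 in MEK-inhibited libraries. Chronic libraries were 24.5-fold below acute ones (log2 difference -4.62 ± 0.19, adjusted p = 2.17e-16), and MEK-inhibited ones 6.5-fold above chronic ones (adjusted p = 8.53e-11). Ifng had 25.6, 68.9 and 85, then 389, 419.1 and 454.8, then 137.9, 197.2 and 212.5. It was 7.23-fold higher in chronic than in acute libraries (adjusted p = 3.11e-07) and 2.3-fold lower with MEK inhibition than in chronic libraries (adjusted p = 0.0368). The latter call was lost without each of the 3 chronic and each of the 3 MEK-inhibited libraries in turn (adjusted p from 0.0814 to 0.222), and with library totals (-0.95, adjusted p = 0.182).

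Lta had a pause-region signal of 392, 455.8 and 442.7, then 122.4, 112.1 and 140.9, then 170.8, 174.5 and 144.5. It was 3.35-fold lower in chronic than in acute libraries (adjusted p = 8.52e-06), and between MEK-inhibited and chronic libraries it differed by 0.37 ± 0.24 (adjusted p = 0.559) although the groups did not overlap. Tnf had 1299, 1048 and 1883, then 771.8, 1106 and 997.1, then 547.5, 677.7 and 581.1, and was called between MEK-inhibited and acute libraries (2.27-fold lower, adjusted p = 0.000349) but not between chronic and acute (-0.53, adjusted p = 0.101) or MEK-inhibited and chronic (-0.66, adjusted p = 0.0791). The chronic to acute difference passed with library totals (-1.13, adjusted p = 0.000226) and without acute replicate 2 (-0.75, adjusted p = 0.0203), and the MEK-inhibited to chronic one without acute replicate 3 (-0.65, adjusted p = 0.0355) or chronic replicate 1 (-0.80, adjusted p = 0.0498). Tgfb1 ranged from 216.4 to 414.8 with the groups overlapping, and its 3 adjusted p-values were 0.611, 0.977 and 0.608.

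**Figure D4:**
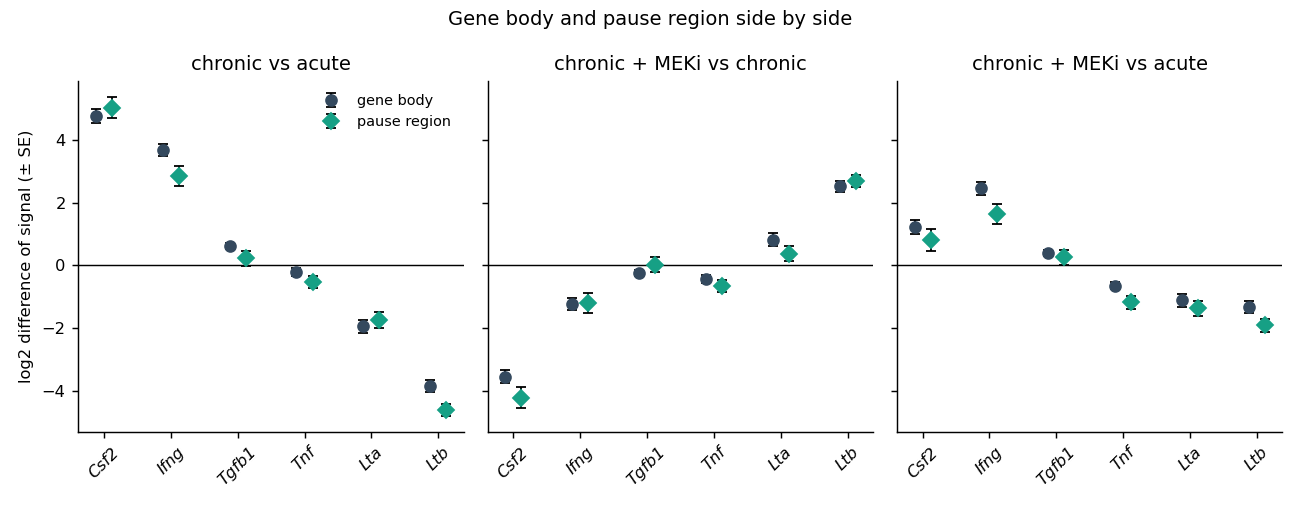
Log2 difference (y axis, ± SE) of gene-body signal (circles) and pause-region signal (diamonds) for the 6 genes tested in both (x axis), 1 panel per comparison. Both readings of Csf2, Ifng, Tnf, Lta and Ltb lie on the same side of 0 in each panel, and those of Tgfb1 lie on either side between MEK-inhibited and chronic libraries (-0.24 and 0.03).

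Whether the signal near the start changed relative to the gene body was tested on the difference of the 2 log values in each library. Of 7413 genes, limma called 0 in each comparison, with 747, 405 and 586 at an unadjusted p under 0.05. Among the 6 members tested, Ifng (-0.83 ± 0.38) and Ltb (-0.76 ± 0.30) had an unadjusted p under 0.05 between chronic and acute libraries (adjusted p = 0.492 and 0.44), and 0 members had one in the other comparisons. A change of pausing at these genes was therefore not detectable in these libraries.

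Other cytokine genes were taken from a list of 15, of which 6 passed the filter. Between chronic and acute libraries 4 were higher and 1 lower, against 18% and 15.9% of all genes. Between MEK-inhibited and chronic libraries 2 were higher and 4 lower, against 9.93% and 7.65% of all genes. Il13, a type 2 cytokine, had means of 282.3 in acute, 9661 in chronic and 411.7 in MEK-inhibited libraries, and was 33.5-fold higher in chronic than in acute libraries and 24-fold lower with MEK inhibition than in chronic ones (adjusted p = 1.28e-11 and 1.6e-10). Il10, an inhibitory cytokine, had means of 1021, 14540 and 724.5, and Il24 of 2757, 25080 and 4074, with log2 differences between MEK-inhibited and chronic libraries of -4.31 and -2.61 (adjusted p = 1.04e-11 and 1.13e-09). Il4 was 1.97-fold higher in chronic than in acute libraries (adjusted p = 0.000328; 0.0512 with library totals). Lif and Osm, of the interleukin-6 family, were 1.78-fold higher each with MEK inhibition than in chronic libraries (adjusted p = 9.6e-06 and 1.21e-05).

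**Figure D5:**
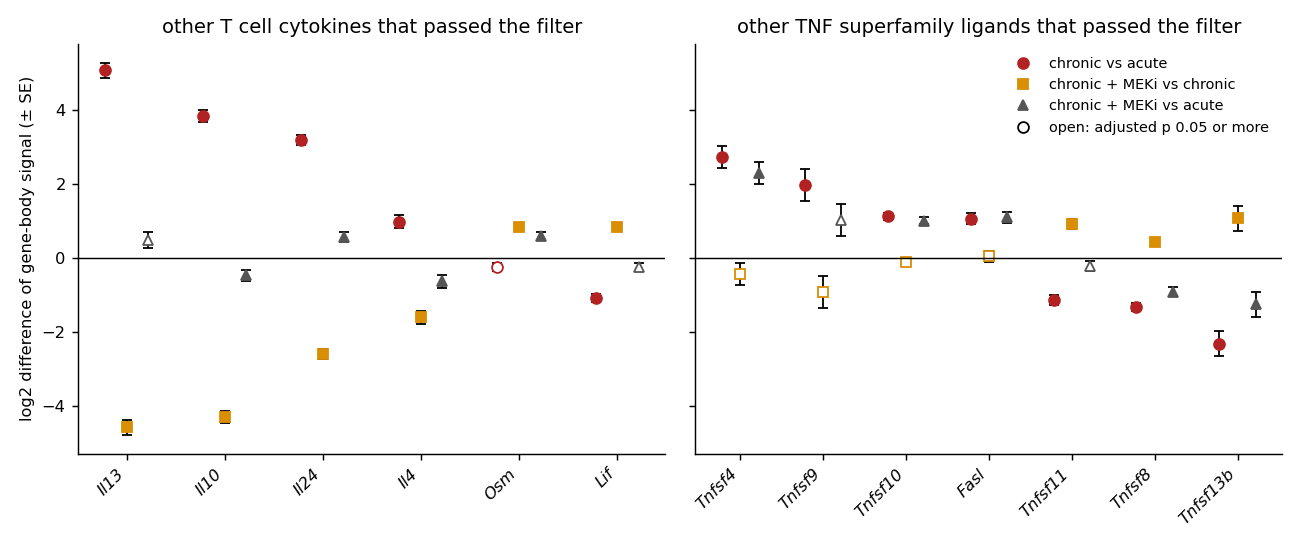
Log2 difference of gene-body signal (y axis, ± SE) for other T cell cytokine genes (left) and other TNF superfamily ligand genes (right) that passed the filter, in the 3 comparisons, filled where the adjusted p is under 0.05. Il13, Il10, Il24 and Il4 are called above 0 between chronic and acute libraries and below 0 between MEK-inhibited and chronic ones, and 0 of the 7 TNF ligands are called below 0 in the latter.

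Of 12 other TNF superfamily ligands 7 passed the filter. Tnfsf4, encoding OX40 ligand, was 6.58-fold higher in chronic than in acute libraries (means of 84.4, 556.1 and 403.7, adjusted p = 9.97e-07), and Tnfsf9, Tnfsf10 and Fasl were 3.89-fold, 2.16-fold and 2.08-fold higher (adjusted p = 0.00174, 1.77e-08 and 1.06e-05). Tnfsf13b (BAFF), Tnfsf8 (CD30 ligand) and Tnfsf11 (RANKL) were 4.99-fold, 2.52-fold and 2.19-fold lower (adjusted p = 3.38e-05, 2.2e-08 and 2.9e-06). The same 3 were higher with MEK inhibition than in chronic libraries, by 2.09-fold, 1.34-fold and 1.88-fold (adjusted p = 0.0383, 0.0105 and 7.65e-05). In that comparison 0 of the 7 were called lower, against 7.65% of all genes.

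Receptors for the members came from a list of 15, of which 14 were tested. In chronic against acute libraries, 2 receptors rose and 7 fell (0 higher and 9 lower with library totals), with a median log2 difference of -0.50. Of all 15942 genes, 18% were called higher and 15.9% lower there, and with library totals 1096 were called higher and 6846 lower. Ifngr2, the signalling chain of the interferon-gamma receptor, had means of 2700 in acute, 392.4 in chronic and 2092 in MEK-inhibited libraries. It was 6.77-fold lower in chronic than in acute libraries (adjusted p = 5.22e-11) and 5.23-fold higher with the inhibitor than in chronic ones (adjusted p = 1.13e-09). Tgfbr1, the signalling kinase of the TGF-beta receptor, had means of 6402, 1295 and 4809, a difference of -2.30 and then 1.89 (adjusted p = 1.75e-12 and 8.62e-11). Tnfrsf14, encoding HVEM, which binds LIGHT, differed by -1.09 and 1.02 (adjusted p = 0.0012 and 0.00406). Il2ra, the alpha chain of the interleukin-2 receptor, was 1.47-fold higher in chronic than in acute libraries (adjusted p = 0.000172), but its difference was 0.07 with library totals (adjusted p = 0.702). Between MEK-inhibited and chronic libraries 6 receptors were higher and 2 lower (6 and 0 with library totals). Of all genes, 9.93% were called higher and 7.65% lower there, and with library totals 1769 were called higher and 741 lower.

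Of 9 genes for maturation and release of these cytokines, 8 passed the filter. In chronic against acute libraries 5 were higher and 1 lower (4 and 3 with library totals). Of all 15942 genes, 18% were higher and 15.9% lower (1096 and 6846 genes with library totals). Rhbdf2, which brings the TNF-shedding protease ADAM17 to the surface, was 3.57-fold higher in chronic than in acute libraries (means of 774.8, 2776 and 1849, adjusted p = 5.1e-09). Adam17 itself differed by -0.15 (adjusted p = 0.293), and with library totals by -0.64 (adjusted p = 0.000746). Ltbp3, for a protein that stores latent TGF-beta, was 4.07-fold higher from low signal (means of 21.5 in acute, 100.6 in chronic and 87.9 in MEK-inhibited libraries, adjusted p = 0.00246). No acute library reached the filter level for Ltbp3. Lrrc32 (GARP), which holds latent TGF-beta on the cell surface, had means of 15660, 1898 and 8046. It was 8.26-fold lower in chronic than in acute libraries (adjusted p = 4.31e-11) and 4.29-fold higher with MEK inhibition than in chronic ones (adjusted p = 1.02e-08).

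Of 20 transcription factors of cytokine genes 19 were tested, and 5 were higher and 7 lower in chronic than in acute libraries (5 and 11 with library totals). Of all 15942 genes, 18% were higher and 15.9% lower (1096 and 6846 genes with library totals). Egr2, an ERK target, had means of 176.1 in acute, 2075 in chronic and 191.8 in MEK-inhibited libraries, 11.5-fold higher in chronic than in acute and 10.7-fold lower with the inhibitor than in chronic libraries (adjusted p = 6.24e-10 and 3.23e-09). Batf and Irf4, which bind DNA together, were 5.43-fold and 4.49-fold higher in chronic than in acute libraries (adjusted p = 4.87e-10 and 1.14e-12), and 2.77-fold and 2.76-fold lower with MEK inhibition than in chronic ones. Fos was 9.69-fold lower in chronic than in acute libraries (means of 198.5, 15.8 and 13.2, adjusted p = 0.000331), but it passed the filter only through the acute libraries. Nfatc1 was 1.82-fold lower (adjusted p = 3.31e-06) and Egr1 1.78-fold lower (adjusted p = 0.0352). The Egr1 means were 492.4 in acute, 273.7 in chronic and 32.9 in MEK-inhibited libraries. Tbx21 (T-bet), which binds the Ifng locus, had means of 5575, 4618 and 12690. It was 2.74-fold higher with MEK inhibition than in chronic libraries (adjusted p = 3.07e-09), and its part in the Ifng values was not tested.

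For each member, the 3 genes with the most similar gene-body pattern were found over the 9 libraries, as the smallest root mean square difference of centred log2 signal among genes whose signal averaged 100 or more. This is a description with no test. Csf2 was most like Havcr2, the inhibitory receptor TIM-3 (0.28), Prf1, the pore-former perforin (0.43), and Il13 (0.56). Ifng was most like Scd1 (0.24) and Hmgcs1 (0.25), enzymes of fatty acid desaturation and sterol synthesis, and Dennd3 (0.30). Tnf was most like Dusp7, a phosphatase of ERK (0.09), Alg3 (0.11) and Mplkip (0.11). Ltb was most like Isg20 (0.26), the immunoglobulin gene Ighd (0.36, means of 405.3, 29.7 and 200.9) and Lrrc32 (0.37), and Lta most like Klf3 (0.21), Sh3bp5 (0.22) and Fbxo17 (0.24). Tnfsf14 was most like Csf1, another colony-stimulating factor (0.29), Slc16a13 (0.30) and Ehbp1l1 (0.30). Tgfb1 was most like Zfp568 (0.06), Dna2 (0.06) and Tigar (0.07), and Il16 most like Stard5 (0.11), which overlaps it, Btg1 (0.16) and Ahr (0.16).

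Markers of other cell types were counted in the same way. The summed signal of the CD4 T cell markers Cd4 and Zbtb7b was 1040 to 1367 in acute, 1054 to 1383 in chronic and 1729 to 2016 in MEK-inhibited libraries. That of 5 myeloid markers was 126.5 to 163.7, 56.8 to 148.4 and 80.1 to 184.2, and that of 3 NK cell markers 7.87 to 28.8, 24.2 to 40.6 and 32.3 to 54.2, with Ncr1 at 0 in the MEK-inhibited libraries. The CD4 T cell sum was higher in each MEK-inhibited library than in any other. The NK cell sums of chronic and MEK-inhibited libraries overlapped at low signal, with 2 of the 3 genes under 50 in every library. The 2 CD4 T cell markers went opposite ways, with means of 441.5 in acute, 233.9 in chronic and 115.7 in MEK-inhibited libraries for Cd4 and of 788.6, 1002 and 1769 for Zbtb7b. The part of these markers in the values of the cytokine genes was not tested.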

How the data were processed

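Each of 2 deposited tables, read here as gene body and pause region, holds signal per transcript, already scaled by the authors with 1 factor per library, as the step between values shows. The coordinates of the regions, the counting program and its use of strand are not given in the sources used here. The submitters' processing notes name FastQC 0.12.0, Trim Galore 0.6.10, STAR 2.7.0a, SAMtools 1.19.2, deepTools 0.1.9, R 4.1.2 and build mm10. Of 118482 rows, 117346 matched GENCODE M21 (GRCm38) transcripts with their version and 383 without, and 753 found no match and were dropped. Each gene is represented by its row of highest average gene-body signal.

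A gene was tested if 3 or more libraries reached a deposited signal of 50. Scaling between libraries used trimmed log ratios, unweighted, over these genes (30% of ratios and 5% of levels trimmed at each end), and log2(signal + 5) entered 1 limma model of the 9 libraries with robust moderation and a trend (R 4.3.3, limma 3.58.1, Python 3.11.15, pandas 2.3.3), with Benjamini-Hochberg adjustment over all genes and a threshold of 0.05. Fold changes are on that scale and understate changes of weak genes. The test of pause region minus gene body used no trend. Scripts were tested on simulated data. The members, gene lists, markers and motifs were chosen with earlier results of these data known. Named genes are the members, the 3 most alike genes for each, and called genes of the lists (above 6 called, the 3 largest rises and 3 largest falls), and other list genes named with values were chosen after the values were seen. Promoters are RefSeq's and 3′ untranslated regions GENCODE's; all 9 members had a promoter entry. Alternatives covered pseudocount, scaling, filter, row choice, moderation, libraries in the fit, a replicate block and leaving out each library. Some genes of the lists are not reported here.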

Additional observations from a re-analysis of the deposited data

How the results depend on the processing

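The count of members called stayed within 1.5 times the main value under each alternative, with 7 to 8, 4 to 7 and 7 to 8 called in the gene body on leaving out 1 library (chronic against acute, MEK-inhibited against chronic, MEK-inhibited against acute) and 4 to 5, 2 to 4 and 4 to 5 in the pause region. No member called in the gene body or pause region changed sign under an alternative. Calls of Csf2, Ifng, Tnfsf14, Ltb and Lta between chronic and acute libraries in the gene body, and of Il16, held under all 20 alternatives. Those of Tnf, Lta and Tgfb1 named above did not, and the cause was not tested. Besides the library totals given there, Tnf between MEK-inhibited and chronic libraries was not called with a filter of 10 (adjusted p = 0.0613), without a filter (0.104) or with plain limma (0.153), nor was Lta with a filter of 10 (0.0588) or plain limma (0.0573). The pause-region call of Ifng between the same groups was lost in 12 of 17 alternatives.

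Over all genes, no filter gave 1637 calls (725 higher, 912 lower) between MEK-inhibited and chronic and 2642 (1305 higher, 1337 lower) between MEK-inhibited and acute libraries in the gene body, where leaving out a library gave at least 2128 and 3219. In the pause region it gave 494, 107 and 206, library totals gave 1723 between chronic and acute (123 higher, 1600 lower), and leaving out a library gave at least 545, 109 and 233. With library totals 13.8%, 70.5% and 16.1% of called genes were higher in the gene body, against 53.2%, 56.5% and 55.6%. For pause region minus gene body, alternatives called at most 18, 2 and 2 genes and 0 members.

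Same-numbered libraries of different groups did not deviate together (9 pairs, r from -0.53 to 0.10, 0 above 0.1), so the numbers gave no sign of a pairing. Differently numbered libraries had r from -0.37 (acute 3 with MEK-inhibited 1) to 0.51 (acute 2 with MEK-inhibited 1). With 3 libraries per group, such correlations cannot show whether libraries shared a culture or animal. With a replicate block, 7, 5 and 8 members were called in the gene body and 4, 4 and 4 in the pause region; Lta lost its call between MEK-inhibited and chronic libraries (adjusted p = 0.0767) and Tnf gained one there in the pause region (0.0402).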
